A study of Mus musculus with 13 samples.

Results

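Microglia from mice kept on high-fat diet (HFD) for 16 weeks were compared with microglia from mice on control diet that had been sorted on the same plates. Members were the wells that the authors' table of wells marks as 16 weeks of HFD or as control diet on plates 2, 3, 10, 11, 12 and 13 and that held at least 1500 transcripts over the genes the authors kept. These were 618 cells, 231 from HFD and 387 from control, of the 1617 cells in the whole series that reached the same depth. They came from 5 HFD and 9 control replicates, where a replicate is a replicate identifier in the authors' table.

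All mice were C57BL/6J males, fed either standard chow or a diet with 60% of its energy from fat. CD45lo CD11b+ cells were taken from the hypothalamus, sorted singly into plate wells and sequenced by CEL-Seq2, a method that counts mRNA molecules from their 3' ends with unique molecular identifiers (UMIs). Plates 2 and 3 shared HFD replicate L4 and control replicate L3. Plates 10, 11 and 12 shared HFD replicates M5 and M6 and control replicates M1 to M4. Plate 13 held HFD replicates M9 and M10 and control replicates M11, M12, M15 and M16. Well names carried 16 weeks for L3 and L4, 14 weeks for M15 and M16, and 24 weeks for all others, and the sources used here do not say what those weeks count. They also do not say whether 1 identifier is always 1 mouse, so the p-values measure the spread between identifiers, which may in part be technical.

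Microglia are the resident macrophages of the brain. In the hypothalamus they lie close to the neurons that control feeding and energy use, and prolonged HFD feeding is known to be accompanied by changes in their shape, number and cytokine production. At rest they express a set of homeostatic genes such as P2ry12, Tmem119 and Cx3cr1. In neurodegeneration and demyelination these fall while a disease-associated set led by Apoe, Trem2 and lipid and lysosomal genes rises.

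The sorted cells carried the markers of their label. All 10 microglial markers had counts, and their summed level was 32196 to 42436 CPM (counts per 1e+06 counts of the tested genes, scaled between replicates) in HFD replicates and 35408 to 43857 in control replicates. Markers of border-associated macrophages summed to at most 193 CPM in any replicate, with Cd163 at 0, and those of monocytes to at most 133 CPM. Markers of neurons reached 274 CPM in HFD and 225 CPM in control replicates, those of oligodendrocytes 216 and 356 CPM, and those of endothelial cells 165 and 202 CPM. At least 3 UMIs of another cell type's markers were found in 14 of 231 HFD cells (6.06%, exact 95% interval 3.35 to 9.96) and in 17 of 387 control cells (4.39%, 2.58 to 6.94), when Csf3r, which microglia also express, was not counted. The intervals cover counting error only. Summed transcripts ranged from 22774 to 374539 in HFD and from 24157 to 428918 in control replicates. Replicates L3 and L4 stood apart in Gapdh and Rpl19, which were near 0 on plates 2 and 3 only. Gapdh, a glycolytic enzyme used by every cell, was at 0 CPM in L4 and at 19.8 CPM in L3 against a control median of 436 CPM.

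Depth per cell overlapped between the diets. Replicates had a median of 2693 to 3730 transcripts per cell in HFD and 2628 to 4156 in control. Averaged over the 3 plate sets the HFD replicates lay 194 transcripts lower, with differences of -152, 49.9 and -480 in plates 2+3, plates 10+11+12 and plate 13 (exact permutation test over 450 assignments, two-sided p = 0.318, the smallest possible being 0.00222). When every cell was thinned to 1000 UMIs, HFD replicates had 704 to 723 and control replicates 696 to 712.5 genes per cell.

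At 16 weeks of HFD no gene passed the test across all genes. Summed counts of the replicates were fitted in edgeR, using its quasi-likelihood test with the plate set as a block, and p-values were adjusted by the method of Benjamini and Hochberg. Of 3603 genes tested, 0 (0%) had an adjusted p under 0.05, and DESeq2 also called 0. The lowest adjusted p was 0.476. At an unadjusted p under 0.05 stood 148 genes (4.11%) by edgeR, 77 of them higher in HFD (2.14% of genes tested) and 71 lower (1.97%), and 103 genes by DESeq2.

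The differences were small as well as uncertain. The median log2 fold change of all genes was 0.00, and 1803 genes (50.0%) were above 0. The middle 90% of genes lay between -0.43 and 0.41, the median standard error was 0.26, and 4 genes differed by more than 1 on the log2 scale (Atad1, Ildr2, Arsa and the dynein chain Dync1li1). The replicates of both diets did not overlap in 1 gene (0.0278%), Smarca5, a chromatin remodelling ATPase named here after its values were seen. Smarca5 was at 81.3, 75.9, 66.6, 0 and 54.8 CPM in L4, M5, M6, M9 and M10 and at 87.0 to 131 CPM in the control replicates, with a log2 fold change of -0.59 ± 0.32 (SE, unadjusted p = 0.0666 by edgeR). Every HFD value thus lay below every control value, although the fitted difference did not reach an unadjusted p of 0.05. In each of the 3 plate sets, 466 genes (12.9%) were higher and 483 (13.4%) lower in HFD. Values below are given in the order L4, M5, M6, M9, M10 for HFD, followed by the lowest, median and highest of the 9 control replicates.

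The 10 genes with the smallest p in each direction are described next as not called. Of these, 8 of the higher and 8 of the lower genes differed in the same direction in all 3 plate sets, which the choice by p favours.

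**Figure D1:**
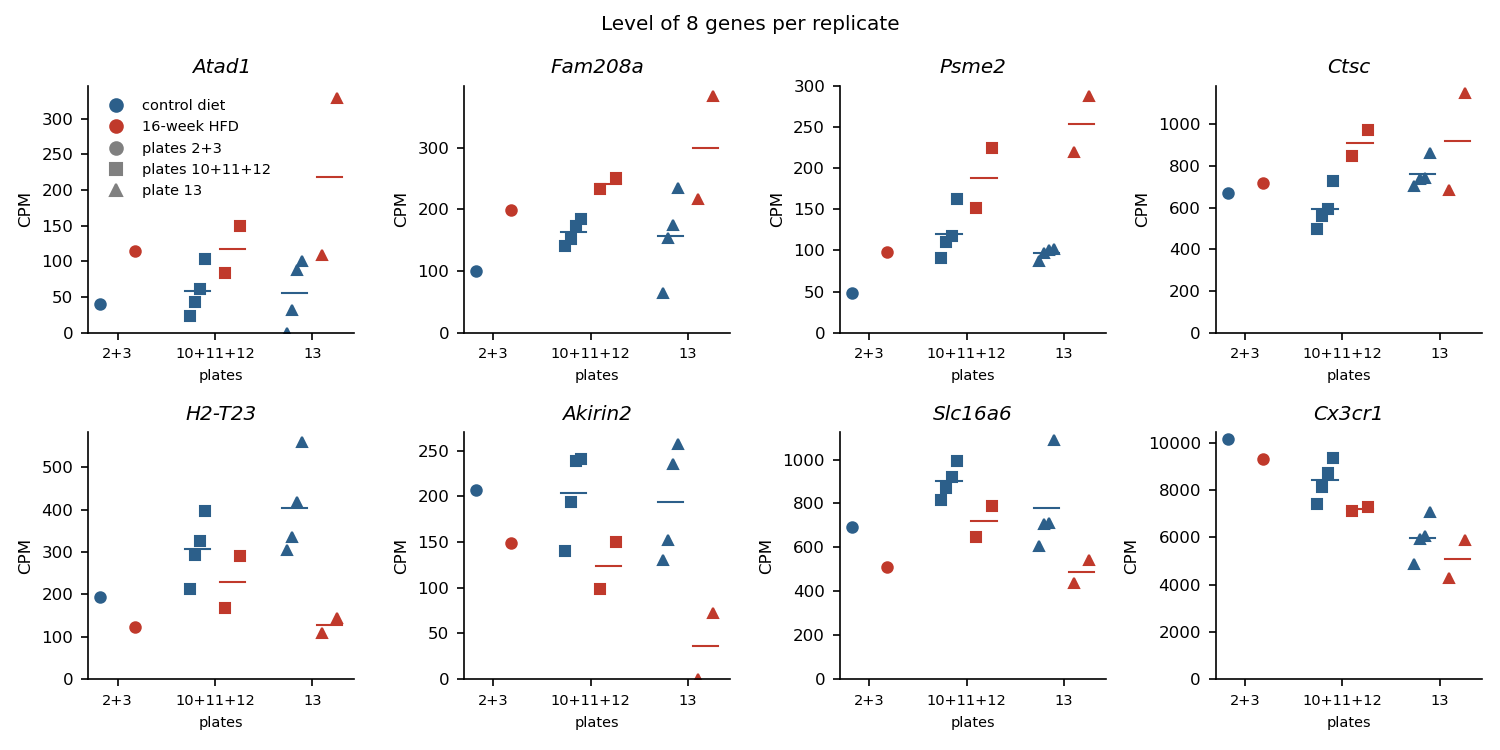
Level of 8 genes in each replicate, in CPM, by plate set. Points are replicates, coloured by diet, and bars are their means. In plates 10+11+12 both HFD replicates lie below all 4 controls for Cx3cr1 and Slc16a6 and above them for Fam208a, while the diets overlap over all replicates in each of the 8 genes.

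Among the genes higher in HFD, the smallest p belonged to Rpl12, a protein of the large ribosomal subunit (chromosome 2, 32961559 to 32965345, GRCm38). Rpl12 was at 58.5, 630, 533, 684 and 1371 CPM in HFD and at 70.9, 353 and 698 CPM in control replicates, a log2 fold change of 0.66 ± 0.17 (95% interval 0.32 to 1.00, p = 0.000183, adjusted p = 0.476 by edgeR). In plates 2 and 3 it was low in both diets and slightly lower in HFD (-0.22), and M10, with 8 cells, gave the highest value. Ribosomal protein genes have near-identical processed copies, so their counts are uncertain where reads could map to several places.

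Atad1, a AAA ATPase that removes misplaced proteins from the outer mitochondrial membrane, lies at 32671638 to 32739786 on chromosome 19. It was at 114, 83.5, 150, 108 and 329 CPM in HFD and at 0, 43.5 and 104 CPM in control replicates, a log2 fold change of 1.26 ± 0.34 (0.60 to 1.93, p = 0.000264, adjusted p = 0.476 by edgeR). In 4 of the 5 HFD replicates it was above the highest control, and M5 fell among the controls.

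Psme2, a subunit of the proteasome activator PA28 (chromosome 14, 55587441 to 55591113), was at 97.5, 152, 225, 288 and 219 CPM against 48.2, 101 and 163 CPM, a log2 fold change of 0.83 ± 0.26 (p = 0.00176, adjusted p = 0.995 by edgeR). M6, M9 and M10 were above all controls and L4 was close to the control median. Fam208a, a component of the HUSH silencing complex (chromosome 14, 27428834 to 27483555), was at 198, 251, 233, 216 and 384 CPM against 64.3, 153 and 235 CPM, a log2 fold change of 0.73 ± 0.22 (p = 0.000987). In Fam208a M5 and M10 were above all controls. Zfand6, a zinc finger protein (chromosome 7, 84613766 to 84689959), was at 257, 319, 258, 108 and 110 CPM against 101, 129 and 262 CPM. Its difference of 0.77 ± 0.22 was carried by plates 10+11+12 (1.15), while plate 13 pointed the other way (-0.42).

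Ctsc encodes cathepsin C, the lysosomal protease that activates serine proteases of immune cells, and lies at 88278085 to 88310888 on chromosome 7. It was at 719, 850, 974, 684 and 1152 CPM in HFD and at 497, 706 and 865 CPM in control replicates, a log2 fold change of 0.40 ± 0.14 (p = 0.00375 by edgeR). M6 and M10 were above all controls and M9 was below the control median. Ildr2, an immunoglobulin-like membrane protein, was at 127, 129, 133, 252 and 110 CPM against 0, 62.4 and 131 CPM, and Lpcat1, an enzyme of phospholipid remodelling, at 322, 235, 291, 252 and 165 CPM against 87.3, 166 and 252 CPM. The remaining 2 of the higher 10 were Madd and the intronic transcript Gm15513, whose reads overlap another gene and are uncertain, with log2 fold changes of 0.69 ± 0.25 and 0.94 ± 0.32.

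Among the genes lower in HFD, the smallest p belonged to H2-T23, which encodes the non-classical MHC class I molecule Qa-1 (chromosome 17, 36029773 to 36032855). H2-T23 was at 124, 167, 291, 144 and 110 CPM in HFD and at 193, 325 and 560 CPM in control replicates, a log2 fold change of -0.63 ± 0.20 (p = 0.00236, adjusted p = 0.995 by edgeR). All HFD replicates were below the control median and 4 of 5 were below the lowest control. MHC class I genes are a family of close copies, so this count is uncertain too.

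Slc16a6, a monocarboxylate transporter that carries ketone bodies, lies at 109450855 to 109473598 on chromosome 11. It was at 510, 790, 649, 540 and 439 CPM in HFD and at 605, 818 and 1091 CPM in control replicates, a log2 fold change of -0.40 ± 0.14 (p = 0.00518 by edgeR). Differences were alike in the plate sets, at -0.43, -0.32 and -0.62, and M5 and M6 were within the range of all controls.

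Akirin2, a nuclear cofactor of NF-kappaB target genes (chromosome 4, 34550937 to 34566908), was at 150, 98.7, 150, 72.0 and 0 CPM against 131, 207 and 257 CPM, a log2 fold change of -0.73 ± 0.24 (p = 0.00301). L4 and M6 alone reached the control range, and plate 13 differed most (-2.41). Arsa, the lysosomal arylsulfatase A (chromosome 15, 89472476 to 89477425), was at 55.3, 53.2, 8.32, 180 and 54.8 CPM against 50.9, 87.3 and 159 CPM, and its set differences of -0.50, -1.91 and 0.51 did not share a direction. Arhgap5, a GTPase activating protein, was at 423, 372, 433, 288 and 384 CPM against 254, 511 and 757 CPM, so that every HFD value lay below the control median but within the control range. The other lower genes were Camsap1, Ino80e, Gatc and Pcm1, with log2 fold changes of -0.90, -0.91, -0.84 and -0.70, and Jun.

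Jun, the AP-1 transcription factor of the immediate early genes, lies at 95049034 to 95052222 on chromosome 4. It was at 670, 175, 91.5, 396 and 165 CPM in HFD and at 33.6, 299 and 643 CPM in control replicates, a log2 fold change of -0.50 ± 0.19 (p = 0.0116 by edgeR). The plate sets differed in direction, at 0.06, -1.32 and 0.60, and both replicates of plates 2 and 3 gave the highest value of their diet.

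Genes that define homeostatic microglia differed by little. All 21 genes of this list were tested and 6 were above 0, with a median log2 fold change of -0.08, and 1 had an unadjusted p under 0.05. Tmem119, a surface protein of microglia, was at 2256, 2809, 3037, 2413 and 2084 CPM in HFD and at 2138, 2444 and 2917 CPM in control replicates, a log2 fold change of 0.01 with a 95% interval of -0.20 to 0.22. P2ry12, the ADP receptor that guides microglial processes, was at 4448, 4958, 4910, 4034 and 3181 CPM against 3663, 4807 and 5310 CPM (-0.12, interval -0.32 to 0.09). Csf1r, the receptor on which microglial survival depends, was at 7419, 8079, 8313, 8896 and 7624 CPM against 7081, 7938 and 9163 CPM (0.030, interval -0.16 to 0.22).

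Cx3cr1, the fractalkine receptor (chromosome 9, 119901616 to 120069879), was the member with an unadjusted p under 0.05. It was at 9312, 7282, 7131, 5871 and 4278 CPM in HFD and at 4887, 7427 and 10148 CPM in control replicates, a log2 fold change of -0.21 ± 0.10 (p = 0.0455, adjusted p = 0.995 by edgeR). The differences of the 3 plate sets were -0.12, -0.22 and -0.24. In plates 10+11+12 both HFD replicates were below all 4 controls, and over all replicates the diets overlapped. Of the list, 9 members were lower and 1 higher in all 3 plate sets, where 13.4% and 12.9% of all genes tested were. The median of the list was -0.066 in plates 2+3, -0.0052 in plates 10+11+12 and -0.20 on plate 13. The summed level of the list was 92232, 98811, 100024, 98252 and 82328 CPM in HFD and 94174 to 107802 CPM in control replicates, so that L4 and M10 were below all controls and the other 3 within their range.

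Other genes that the study names were also close. Itgam and Ptprc, which encode CD11b and CD45 and were used for the sort, differed by -0.07 ± 0.13 and 0.11 ± 0.14, and Aif1, which encodes Iba1, by -0.16 ± 0.15. Ucp2, an uncoupling protein of the inner mitochondrial membrane, was at 670, 721, 541, 792 and 823 CPM in HFD and at 480, 610 and 773 CPM in control replicates (0.16, interval -0.12 to 0.45, p = 0.251 by edgeR). M9 and M10 were above all controls and the others lay among them. Of the 16 genes named, 9 passed the filter on low counts. Tnf had 5 counts in HFD and 22 in control, Il1b 2 and 20, Il6 21 and 37, and Dnm1l, the mitochondrial fission GTPase, 41 and 63, out of 741885 summed transcripts in HFD and 1325460 in control. These genes were below the filter and were not tested in the reported fit.

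**Figure D2:**
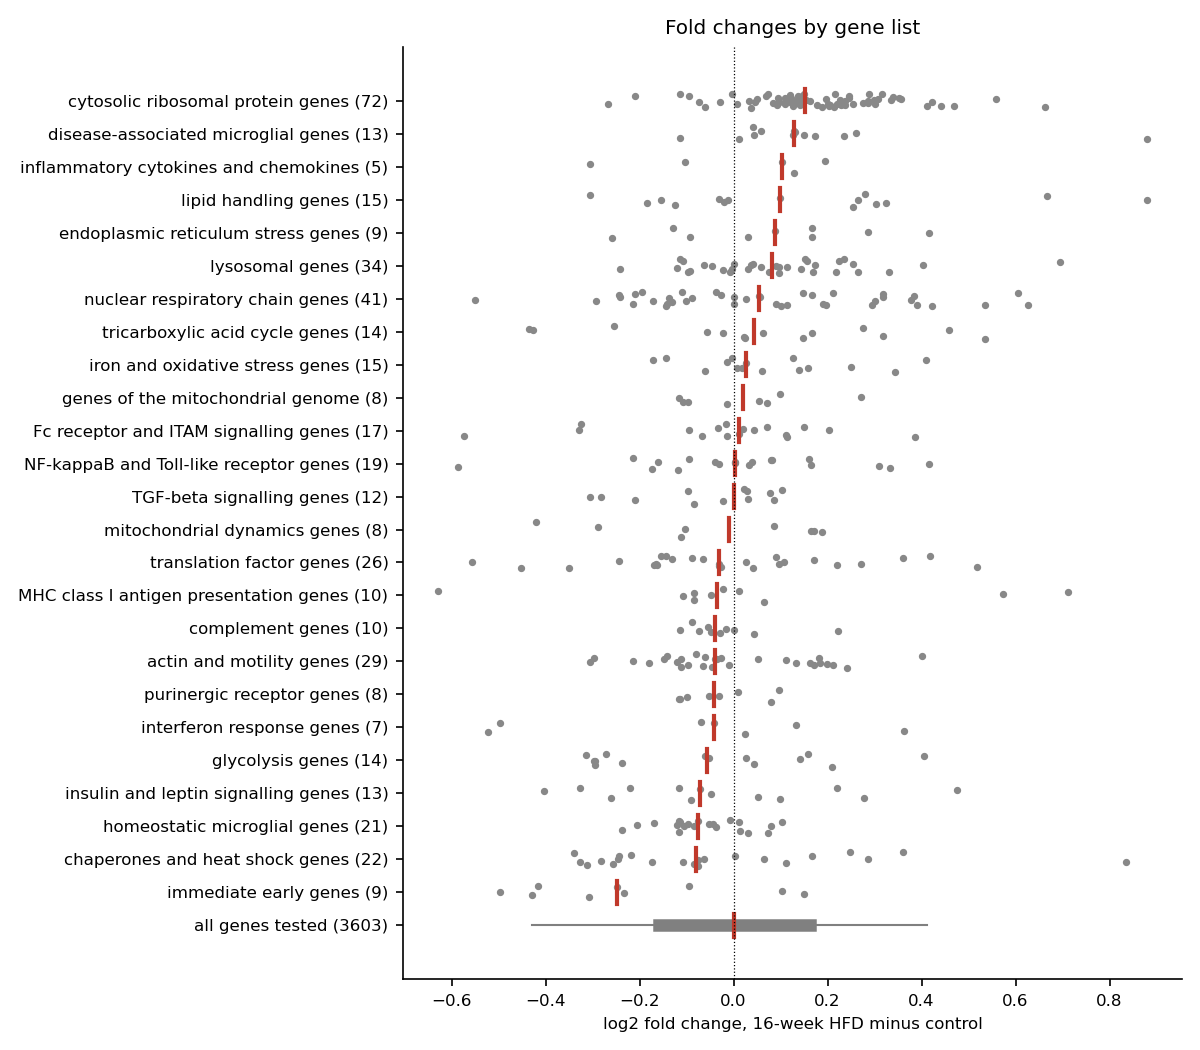
Log2 fold change, HFD over control, of each tested gene by gene list. Each point is a gene and red marks are list medians, and for all genes tested the box spans the quartiles and the line the 5th to 95th percentiles. List medians lie close to 0, with ribosomal protein genes at 0.15 and immediate early genes at -0.25.

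The plot of fold changes by list shows lists of genes by function, without MHC class II and proliferation, which had 1 tested gene each. Of the 28 lists in all, counting that of the genes the study names, 0 held a called member. Their medians are read against that of all genes tested (0.00), and their counts at an unadjusted p under 0.05 against 2.14% of all genes higher and 1.97% lower.

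Ribosomal protein genes lay mostly above 0. Of 79 genes 72 were tested, 64 were above 0, and the median log2 fold change was 0.15, with medians of 0.11, 0.15 and 0.13 in the 3 plate sets. At an unadjusted p under 0.05 stood 9 higher members, at 0.30 to 0.66, and 0 lower members. In all 3 sets 23 members were higher and 2 lower, beside 12.9% and 13.4% of all genes tested. The summed level was 15948, 32727, 30764, 36881 and 32580 CPM in HFD. It was 13868 CPM in control L3 and 26149 to 36492 CPM in the other controls. In plates 10+11+12 both HFD replicates were above all 4 controls, which lay between 27072 and 28851 CPM, and on plate 13 the diets overlapped. L3 and L4 were far below the others. Rplp1, of the ribosomal stalk, was at 1092, 1116, 1040, 864 and 1426 CPM against 437, 989 and 1050 CPM (0.19 ± 0.13), and Rpl19 differed by 0.03 ± 0.19 with 3.25 CPM in L4 and 8.50 CPM in L3. Translation factor genes, by contrast, had a median of -0.03 (26 of 35 tested, 11 above 0).

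Immediate early genes, which respond within minutes to stimulation and to handling of the tissue, lay mostly below 0. Of 23 genes 9 were tested, 2 were above 0, and the median was -0.25. The 2 above 0 were Rhob (0.15) and Sgk1 (0.10). Jun, Junb and Btg2 had an unadjusted p under 0.05, all lower in HFD (-0.50, -0.42 and -0.43). The set medians were 0.00, -0.42 and 0.23, and so the list pointed downward in plates 10+11+12 only. Summed levels were 5413, 3182, 3279, 3602 and 1865 CPM in HFD and 2186 to 5440 CPM in control replicates, and M5 and M6 were below their 4 controls, which lay between 3416 and 4317 CPM. The time between death of the mouse and sorting is not given in the sources used here, and its part in the result was not tested.

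**Figure D3:**
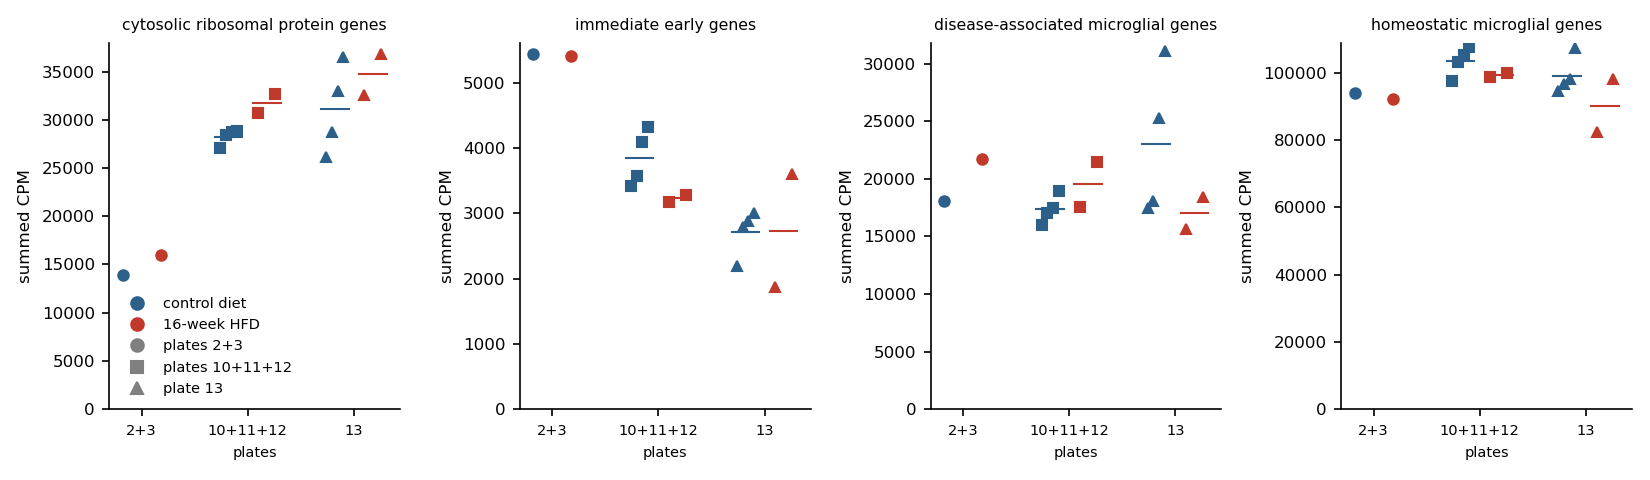
Summed level of 4 gene lists in each replicate, in CPM, by plate set. Points are replicates coloured by diet. Ribosomal protein genes are lowest in L3 and L4 of plates 2+3, at 13868 and 15948 CPM, and in plates 10+11+12 both HFD replicates lie above the controls for this list and below them for immediate early genes.

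Disease-associated microglial genes had a median of 0.13, with 12 of 13 tested members above 0 and 1, Apoe, at an unadjusted p under 0.05. The lysosomal membrane protein Cd63 differed by 0.23, the chemokine Ccl6 by 0.26, the adaptor Tyrobp by 0.15 and the MHC class I light chain B2m by 0.01. The list had 24 genes, and those not tested include Lpl, Cst7, Itgax, Clec7a and Spp1. The set medians were 0.21, 0.17 and -0.25, so that plate 13 was in the other direction, and fitted on plate 13 alone the list's median was -0.21. Trem2, the lipid-sensing receptor of this state, was at 1704, 1746, 1756, 864 and 1152 CPM in HFD and at 567, 1490 and 1726 CPM in control replicates (0.04 ± 0.12), with M5 and M6 slightly above and M9 and M10 well within the controls.

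Genes of lipid handling, tested in 15 of 39 cases, had a median of 0.10 with 8 above 0. Beside Apoe, Acsl4, which activates polyunsaturated fatty acids, had an unadjusted p under 0.05 (0.67). Lysosomal genes were tested in 34 of 37 cases, with a median of 0.08 and 23 above 0, and Ctsc and the calcium channel Mcoln1 (0.69) were below that p. Both lists pointed the other way on plate 13, with set medians of 0.13, 0.17 and -0.20 for lipid handling and 0.14, 0.10 and -0.13 for lysosomal genes. Npc2, which passes cholesterol out of lysosomes, differed by 0.27 ± 0.15, and Ctsd, cathepsin D, by -0.11 ± 0.11.

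Inflammatory lists showed no shared direction. Of 22 cytokine and chemokine genes 5 were tested, with a median of 0.10 and 0 at an unadjusted p under 0.05. These were Il1a (0.13), Il18 (0.10), Ccl12 (0.20), Ccl9 (-0.10) and Tgfb1 (-0.31). NF-kappaB and Toll-like receptor genes had a median of 0.00 (19 of 34 tested, 11 above 0), interferon response genes -0.04 (7 of 27, 3 above 0) and complement genes -0.04 (10 of 16, 3 above 0). MHC class I genes had a median of -0.04 (10 of 19, 4 above 0), with H2-T23 as the only member at an unadjusted p under 0.05. Of 7 MHC class II genes 1 was tested, H2-DMa (0.07), and of 19 proliferation genes also 1, Tubb5 (-0.06). Fc receptor and ITAM signalling genes had a median of 0.01, with the inhibitory receptor Fcgr2b higher (0.39) and the kinase Btk (-0.57) and the phosphatase Ptpn6 (-0.33) lower at an unadjusted p under 0.05.

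Metabolic lists were centred near 0. Nuclear respiratory chain genes had a median of 0.05 (41 of 77 tested, 24 above 0) and those of the mitochondrial genome 0.02 (8 of 15, 4 above 0). Sdha, the catalytic subunit of succinate dehydrogenase, was at 143, 258, 158, 108 and 219 CPM in HFD and at 50.9, 122 and 218 CPM in control replicates, a log2 fold change of 0.53 ± 0.24 (p = 0.0307, not called by edgeR). M5 and M10 were above all controls and M9 was below the control median. Ndufa9, of complex I, differed by 0.63 and the mitochondrial ribosomal RNA mt-Rnr1 by 0.27, both at an unadjusted p under 0.05. Mitochondrial dynamics genes had a median of -0.01 (8 of 20 tested), tricarboxylic acid cycle genes 0.04 (14 of 27) and glycolysis genes -0.06 (14 of 25). Of the 14 glycolysis genes, 7 were lower and 1 higher in all 3 plate sets, beside 13.4% and 12.9% of all genes tested.

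The remaining lists stood at medians of 0.09 for endoplasmic reticulum stress, 0.03 for iron and oxidative stress, 0.00 for TGF-beta signalling, -0.04 for purinergic receptors and for actin and motility, -0.07 for insulin and leptin signalling, and -0.08 for chaperones. Of the chaperones, Cct3 (0.84) and Pdia6 (0.36) were higher at an unadjusted p under 0.05. List members outside the rule for named genes, Acsl4, Mcoln1, Fcgr2b, Btk, Ccl6, Sgk1, Ptpn6, Ndufa9, mt-Rnr1, Cct3 and Pdia6 among them, were chosen after their values were seen.

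Apoe, the apolipoprotein that carries lipid between cells of the brain, was called or not called depending on how the data were treated. It lies at 19696109 to 19699188 on chromosome 7. Apoe was at 1424, 98.7, 1772, 216 and 384 CPM in HFD and at 7.52, 134 and 9513 CPM in control replicates, a log2 fold change of 0.88 ± 0.34 (interval 0.20 to 1.56, p = 0.0116, adjusted p = 0.995 by edgeR). Its set differences were 1.38, 2.30 and -1.28, and the highest value of all was that of control M16. A filter on low counts that also took account of the plate sets tested 5460 genes and called 1 (0.0183%), Apoe (0.87, adjusted p = 2.88e-06). By DESeq2 the log2 fold change was 0.98 and the unadjusted p 0.424. The difference was -0.32 without the block and -0.46 without cells bearing markers of other types when Csf3r was not counted. With Csf3r counted among the markers, as planned, leaving such cells out gave 1.31 for Apoe (adjusted p = 0.045 by edgeR). Without M6 it was -0.49, without M9 it was 1.37 (adjusted p = 0.0188) and without M16 it was 1.57 (adjusted p = 0.00128).

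**Figure D4:**
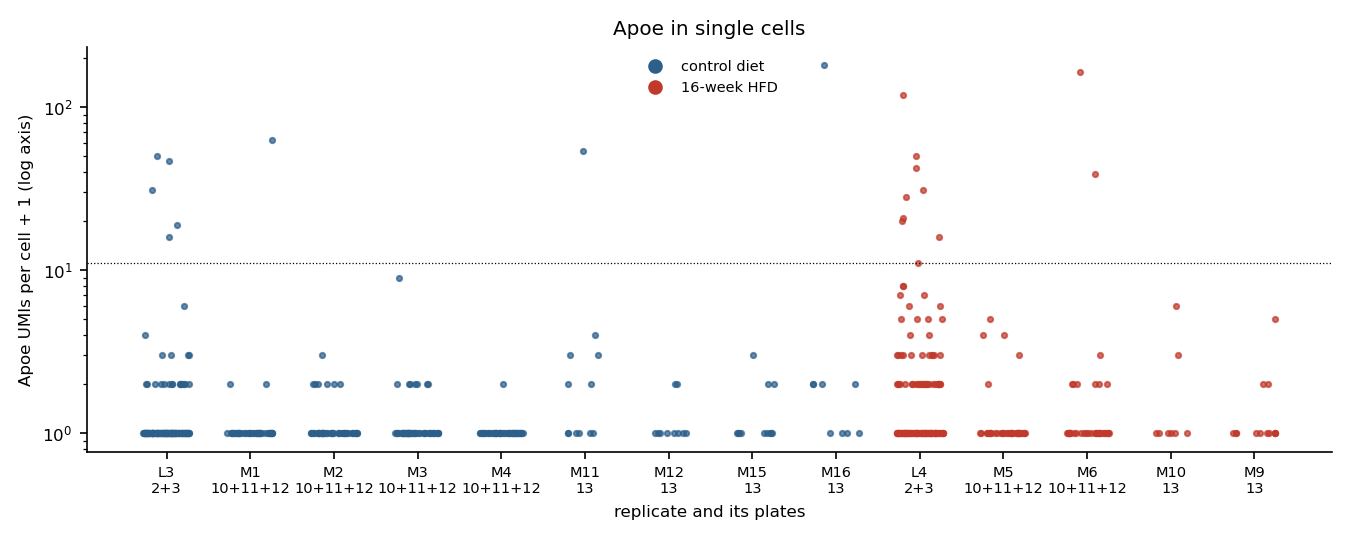
Apoe UMIs in each cell plus 1, on a log axis, by replicate. Each point is a cell, coloured by diet, and the dotted line marks 10 UMIs. The 19 cells at or above the line, 11 HFD and 8 control, hold 81.9% of all Apoe UMIs.

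A small number of cells carried the signal, as the plot of Apoe UMIs per cell shows. Of 1198 Apoe UMIs, 81.9% came from 19 cells with at least 10 UMIs each. These were 11 of 231 HFD cells (4.76%, exact 95% interval 2.40 to 8.36), from 2 of the 5 replicates, and 8 of 387 control cells (2.07%, 0.897 to 4.03), from 4 of the 9 replicates. The intervals cover counting error only and not the spread between replicates. L4, with 133 cells, held 9 of the HFD cells, and M6, with 38, held 2. L3, with 140 cells, held 5 of the control cells, and M1, M11 and M16 held 1 each. The highest cell of M16 had 179 UMIs, that of M6 163 and that of L4 117, and the M6 cell also held 5 UMIs of Mrc1, a marker of border-associated macrophages. The other M6 cell above the line had 38 Apoe UMIs, with 3 of Mrc1, 8 of monocyte markers, 19 of Cd74 and 16 of H2-Aa, and 2 of P2ry12. Control cells held such markers too. The M11 cell with 53 Apoe UMIs had 2 of Mrc1 and 1 of Ms4a7, another border-associated macrophage marker, and the M16 cell had 1 of each. Cells with any Apoe UMI were 39 of 67 in HFD and 9 of 66 in control on plate 3 (58.2% and 13.6%), but 20 of 66 and 17 of 74 on plate 2 (30.3% and 23.0%). L3 and L4 were the replicates on both plates. The shares were 11.1% of HFD and 13.4% of control cells on plate 10, 20% and 9.09% on plate 11, 20.6% and 5.63% on plate 12, and 23.8% and 37.2% on plate 13. Thinned to 1000 UMIs per cell they were 22.7% and 13.5%, 26.9% and 4.55%, 11.1% and 4.48%, 8% and 1.52%, 14.7% and 1.41%, and 14.3% and 20.9% on plates 2, 3, 10, 11, 12 and 13. Control was higher on plate 13 only, but the plates of a set share their replicates and are not separate comparisons. Per replicate the thinned shares were 24.8%, 10.3%, 13.2%, 7.69% and 25% in HFD and 0 to 44.4% in control (median 8.33%), so the diets overlapped.

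Hbb-bs and Fhl3, called only under other filters or fits, rested mostly on L4. Hbb-bs, a haemoglobin chain of red blood cells, had 271 UMIs in 9 of 133 cells of L4, 115 of them in 1 cell, and 1 UMI elsewhere. Fhl3 had 89 UMIs in 27 cells of L4, 43 of them in 1 cell. Adora1, called with no filter beyond 1 count, did not rest on L4. It had 10, 16, 3, 1 and 1 counts in L4, M5, M6, M9 and M10 and 0 to 3 counts in a control replicate. Its sums were 31 counts in HFD and 9 in control, and 8 of the 16 UMIs of M5 were in 1 cell. Hbb-bs, Fhl3 and Adora1 did not pass the filter of the reported fit.

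The study looked for changes in the heterogeneity of microglia after short HFD, and the same question was put at 16 weeks. The mean distance between the cells of a replicate was taken as 1 minus Pearson's correlation over the 2000 most variable genes, after thinning to 1000 UMIs. It was 0.627, 0.660, 0.648, 0.619 and 0.642 in HFD and 0.602 to 0.648 in control replicates. The mean difference over plate sets was 0.0101, with 0.0022, 0.0114 and 0.0169 in the 3 sets (exact permutation test, two-sided p = 0.0289, 0.0578 after adjustment over the 2 measures per cell). In plates 10+11+12 both HFD replicates were above all 4 controls, M6 by little, and in plate 13 the diets overlapped. The difference was 0.00368 (exact permutation p = 0.34) without the 283 cells holding at least 3 UMIs of other types' markers, Csf3r included, and 0.00636 (p = 0.187, exact permutation) without M10. Cells with at least 3 UMIs of other types' markers, Csf3r not counted, made up 0 to 13.2% of an HFD replicate (median 12.5%) and 0 to 10.7% of a control replicate (median 4%). Their part in the difference was not tested beyond leaving them out, which gave 0.00808 (p = 0.0756, exact permutation).

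**Figure D5:**
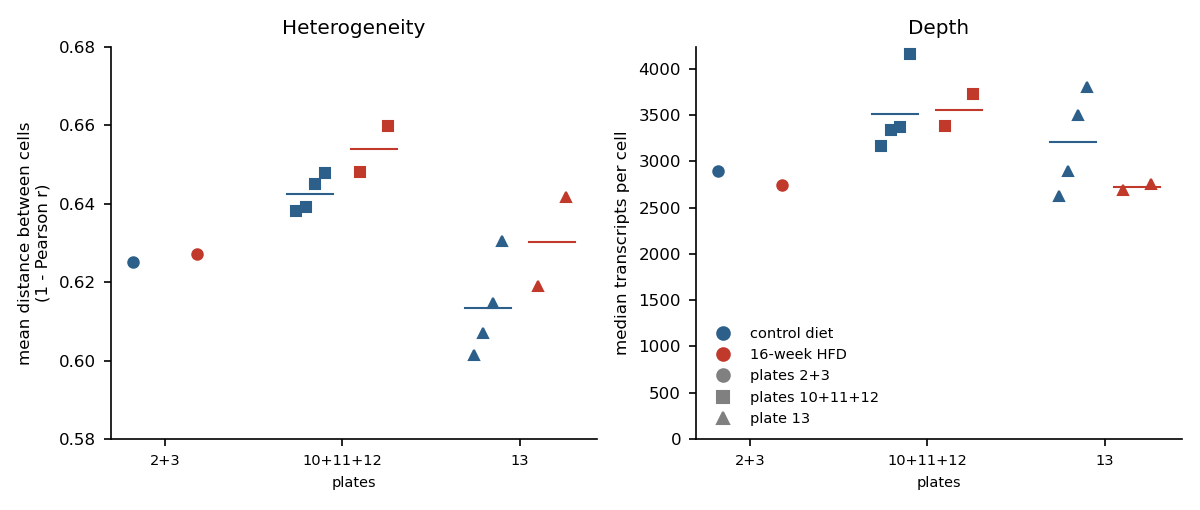
Mean distance between cells (axis from 0.58 to 0.68) and median transcripts per cell in each replicate, by plate set. Points are replicates coloured by diet. The distances span 0.619 to 0.660 in HFD and 0.602 to 0.648 in control replicates, and the depths overlap in plates 10+11+12 and on plate 13.

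The 16-week replicates were also set against other lengths of HFD in a fit of all diets with the plate set as a block, which tested 7662 genes. All 5 of the 16-week replicates entered each comparison, while the 9-week replicates were on plates 10+11+12 only and those of 1 week and 3 days on plate 13 only. Against 9 weeks, 2 genes were called (0.0261%), Apoe higher at 16 weeks (1.58) and the long non-coding RNA Pvt1 lower (-1.98), while DESeq2 called 0. On plates 10+11+12, which held the 9-week replicates, M6 was high in Apoe with 163 UMIs in 1 cell. M5, the lowest of the 16-week replicates at 81.3 CPM, lay between both 9-week values of 43.2 and 243 CPM. Against 1 week there was 1 replicate of 16 cells, which the fit assumes to vary like the other groups, so the length of HFD and that library cannot be told apart. Compared with that library 7 genes were called (0.0914%), all lower at 16 weeks. These were Cd74 and H2-Ab1, H2-Aa and H2-Eb1 of MHC class II, the chemokines Ccl3 and Ccl4, and Gm42418. DESeq2 called 1 gene in that comparison. Against 3 days, with 2 replicates, 9 genes were called (0.117%), 3 higher at 16 weeks, led by Apoe (3.90), and 6 lower, among them the chaperones Calr (-1.28) and Hsp90ab1 (-1.30) and Cx3cr1 (-0.74). DESeq2 called 8 genes there, and edgeR without the plate-set block called 0. Apoe stood at 81.3 to 1446 CPM over the 16-week replicates (median 307), here per library of all genes, and at 63.6 and 203 CPM in the 3-day replicates. The fitted difference is thus larger than that of the levels. Gm21738, called as higher at 16 weeks, had a 16-week median of 22524 CPM, below both 3-day values of 25465 and 28664 CPM. The 3 comparisons share the 16-week replicates.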

How the data were processed

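The authors trimmed reads with Cutadapt, mapped them to GRCm38 (mm10) with STAR and counted them on genes with featureCounts in snakePipes. They deposited 1 table per plate with the estimated count of transcripts by gene and well, that is, UMIs corrected for chance repeats, not normalized. All values were taken from these tables. Inverting the correction for 4096 UMI tags gave whole UMIs within 0.01 in 100% of values above 0, and those UMIs are the ones given per cell. The authors' filtered table supplied the list of 17280 genes, and 703 of its columns, whose names do not show which sample they belong to, were not used. The 447 genes it leaves out held 16.5 to 39.2% of the transcripts of a replicate. Diets and replicate identifiers came from the table of wells, which holds 0 duplicated cell identifiers. Doublets were not called, because sorting placed single cells in wells.

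Estimated counts were summed per replicate, rounded and fitted with diet and plate set in edgeR 4.0.16, after filterByExpr and TMM scaling, by its quasi-likelihood test, and by DESeq2 1.42.0 in R 4.3.3. Log2 fold changes are HFD over control, with SE, and CPM were scaled by TMM over the genes tested. The plan for the filter can be read in 2 ways. The filter by diet and plate set was fitted first and called 1 gene, Apoe, and the filter by diet, which called 0, was adopted after both results had been seen, because under the former a gene can pass on plates 2 and 3 alone. The members and gene lists were chosen with earlier results of these data known. Named genes were the 10 with the smallest p in each direction, the tested genes the study names, and the most abundant tested members of each list. Values per cell were tested by exact permutation within plate sets in scipy 1.17.1. The fits were tested on simulated data. Coordinates are from GENCODE on GRCm38. Alternatives were the normalization, tool, filters, block, plate sets, marker-bearing cells, and leaving out each replicate.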

Additional observations from a re-analysis of the deposited data

Results flagged for a closer look

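Among 126 groups of 5 or 9 replicates, 19 samples stood far from the others of their group. Chance flags about 1 in 20 groups. On plate 13, whose replicates had the fewest cells, HFD replicate M10 was high for Atad1 (329 CPM) and Fam208a (384 CPM), and M9 was high for Ildr2 (252 CPM), Arsa (180 CPM) and Ctss (9580 CPM). Among its controls, M16 was high for Ino80e (254 CPM) and Apoe (9513 CPM) and low for Itgam (458 CPM). M15 was low for Ptprc (336 CPM) and Rplp1 (437 CPM), M11 was high for Fth1 (2218 CPM) and Ctss (11285 CPM), and M12 was low for Trem2 (567 CPM).

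On plates 2 and 3, HFD replicate L4 was high for Junb (432 CPM) and Hsp90ab1 (1307 CPM) and low for Ly86 (1827 CPM). Control replicate L3 was high for Hsp90ab1 (1364 CPM) and low for Cst3 (24317 CPM) and for the sum of the ribosomal protein genes (13868 CPM). Both replicates of these plates were therefore high for Hsp90ab1, whatever their diet.

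In tests of 16 weeks of HFD against other lengths, edgeR called Apoe (1.58 on the log2 scale) and Pvt1 (-1.98) against 9 weeks. Against 1 week, which is 1 replicate of 16 cells whose own effect cannot be told apart from the length of HFD, it called H2-Aa (-6.68), H2-Ab1 (-5.21), H2-Eb1 (-8.16), Cd74 (-6.38), Ccl3 (-5.23), Ccl4 (-8.20) and Gm42418 (-1.83). Against 3 days it called Apoe (3.90), Gm10717 (0.87) and Gm21738 (0.71) as higher at 16 weeks, and Calr (-1.28), Hsp90ab1 (-1.30), Cx3cr1 (-0.74), Sparc (-0.72), Ttc14 (-2.08) and Rock1 (-2.03) as lower. The median level of Gm21738 at 16 weeks was below both 3-day values. Fitted values of genes with few counts at 16 weeks depend on the prior count and are no bounds. In the fit of all diets a gene could pass the filter through the 1-week replicate alone.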

How the results depend on the processing

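The count of 0 genes called at 16 weeks was the same with RLE scaling, DESeq2, sums per replicate and plate, no plate-set block, plate 13 alone, depth limits of 1000 and 2000 transcripts, all genes, and without immediate early and mitochondrial genes. Of these, sums per replicate and plate tested 936 genes and plate 13 alone 555, against 3603 in the reported fit. In the sums per replicate and plate a replicate also enters once for each of its plates. It was 4 with no filter beyond 1 count (Hbb-bs, Fhl3, Apoe, Adora1), 1 with a mean count of at least 10 (Hbb-bs), 6 in plates 10+11+12 alone (Apoe, Jun, Zfand6, Arsa, Malat1, Fcgr2b), 2 without cells bearing markers of another type (Apoe, Gm42418) and 3 with all diets in the fit. Among alternatives chosen after seeing the data it was 1 with the filter by diet and plate set, 1 without the 2 controls named 14 weeks, and 0 without plates 2 and 3 or without marker-bearing cells when Csf3r was not counted. Leaving out each replicate gave 0 to 1, Apoe being called without M9 (1.37) or without M16 (1.57). The counts against other lengths were 0 by DESeq2 for 9 weeks, 1 by DESeq2 for 1 week and 0 without the block for 3 days.

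Of the 56 genes followed, 48 kept their sign under every alternative fitted over more than 1 plate set; the differences within sets, where more signs change, stand with the genes above. Apoe was -0.32 without the block and -0.46 without marker-bearing cells when Csf3r was not counted. With Csf3r counted it was 1.31, the sign of the reported fit. Tmem119 was -0.025 with no filter, -0.018 in sums per replicate and plate, -0.073 without marker-bearing cells, -0.00525 with all diets and -0.000491 with the filter by diet and plate set. Without marker-bearing cells Csf1r was -0.020, Aif1 0.00617, Klf6 0.14 and Irf8 -0.029, and Csf1r was -0.012 with no filter. Rpl19 was -0.16 without the block, -0.032 without the controls named 14 weeks and -0.097 without marker-bearing cells when Csf3r was not counted. Leaving out each replicate gave -0.49 to 1.57 for Apoe, -0.029 to 0.035 for Tmem119, -0.030 to 0.18 for Ptprc, -0.00253 to 0.059 for Csf1r and -0.11 to 0.23 for Rpl19. List medians ranged over the alternatives from -0.14 to -0.01 for homeostatic and 0.04 to 0.26 for ribosomal genes. The medians of most lists turned under at least 1 alternative, among them cytokines and chemokines (-2.56 to 0.13), MHC class II (-0.13 to 1.78), lipid handling (-0.23 to 0.40), interferon response (-0.49 to 0.08) and endoplasmic reticulum stress (-0.53 to 0.15). The cause of these changes was not tested.

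The heterogeneity difference was 0.158 as distance in 20 principal components (exact permutation p = 0.0689), 0.00368 without marker-bearing cells, of which there were 283 of 618, and 0.00808 when Csf3r was not counted (exact permutation p = 0.0756). Leaving out each replicate gave 0.00636 to 0.0141, and the exact permutation p was above 0.05 without M5, M10, M11, M12 or M15. The depth difference stayed between -258 and -122 transcripts without each replicate. Plates 2 and 3 alone hold 1 replicate of each diet, so that fit was not run. No paired analysis was possible because replicate numbers are not shared between diets, so the comparison within plates is that of the plate-set block.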
